A study of Mus musculus with 6 samples.

Results

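The Groucho corepressors and the chromatin enzymes linked to the Nkx2.2 TN domain were taken as 10 genes, found by symbol among the 23699 rows of the gene tables. They were the 4 long Groucho genes Tle1, Tle2, Tle3 and Tle4, the divergent family member Tle6, the short family member Aes, the histone deacetylases Hdac1 and Hdac2, and the DNA methyltransferases Dnmt1 and Dnmt3a. Every one of the 10 had 1 row and passed the filter on low values. RNA was sequenced from the first 2 cm of duodenum of 3 mutant and 3 control mice aged 6 weeks, all of mixed background. The mutants, called TNint, had the genotype Nkx2.2flox/TN; Villin-Cre/+; Rosa26Tomato/+. Controls 1 and 2 had the genotype Nkx2.2flox/+; Rosa26Tomato/+, and control 3 had Nkx2.2flox/+ without the reporter allele. All 6 animals therefore carried 1 floxed Nkx2.2 allele, and the controls carried neither the TN allele nor Cre. Villin-Cre acts in the intestinal epithelium, whereas the tissue sequenced is the whole wall, so the members are read here in muscle, stroma, nerve and immune cells as well.

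Groucho proteins do not bind DNA themselves. Transcription factors that carry a short peptide motif recruit them, and the recruited Groucho protein brings histone deacetylases to the target gene and so lowers its transcription. The TN (tinman) domain of Nkx2.2 is such a motif. In mouse pancreatic beta cells, Nkx2.2 has been described in a repressor complex with Tle3 (also called Grg3), Hdac1 and Dnmt3a. Aes keeps the amino-terminal part of the family and lacks the WD repeats of the long members, and it has been described as a modulator of their action. The comparison of mutant with control therefore asks whether these genes were at another RNA level in mice that carried the TN allele and Villin-Cre. Both differ between the groups at once and cannot be told apart.

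Sequences are shown for 3 of the 4 members whose values were split among several transcripts, because the deposited tables divide the reads of Tle3, Dnmt1 and Dnmt3a between RefSeq models that share most of their bases. The 3 Tle3 models are 5148, 5172 and 5202 bases long. In the GENCODE vM1 annotation of mm9, 1 coding exon of Tle3 (chromosome 9, from 61242415, plus strand) ends at 61242489 in 10 coding models and at 61242519 in 3, a difference of 30 bases. That is also the difference between the 2 longer RefSeq models, whose exon structure was not used here. The line gives the last 30 shared bases in lower case and the 30 bases of the extension in capitals, at chr9:61242460-61242519 of mm9.
Tle3 exon end: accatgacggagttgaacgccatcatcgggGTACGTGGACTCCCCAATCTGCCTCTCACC

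For Dnmt1 and Dnmt3a the models also differ in where transcription starts. The lines give the 250 bases before 2 of the 3 Dnmt1 starts and before both Dnmt3a starts, from RefSeq (GRCm38.p6), placed here by an exact match to mm9 that ended next to the deposited start of the transcript. Capitals mark every CG, the dinucleotide that DNA methyltransferases modify. NM_010066 and NM_001199431 share a start at 20757423 on the minus strand of chromosome 9, and NM_001199432 starts at 20764332, further upstream. NM_007872 starts at 3806980 and NM_153743 at 3891744 on the plus strand of chromosome 12.
Dnmt1, shared start, chr9:20757424-20757673, minus strand: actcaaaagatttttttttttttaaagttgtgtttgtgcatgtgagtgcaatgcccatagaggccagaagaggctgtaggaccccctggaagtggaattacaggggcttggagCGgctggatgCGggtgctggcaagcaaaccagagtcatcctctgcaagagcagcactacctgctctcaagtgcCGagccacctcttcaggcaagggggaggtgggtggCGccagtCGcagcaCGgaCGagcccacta
Dnmt1, upstream start, chr9:20764333-20764582, minus strand: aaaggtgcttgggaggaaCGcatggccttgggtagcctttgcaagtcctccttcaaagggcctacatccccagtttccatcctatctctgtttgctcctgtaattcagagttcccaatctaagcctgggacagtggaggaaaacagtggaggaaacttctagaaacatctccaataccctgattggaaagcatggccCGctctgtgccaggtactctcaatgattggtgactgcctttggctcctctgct
Dnmt3a, first start, chr12:3806730-3806979, plus strand: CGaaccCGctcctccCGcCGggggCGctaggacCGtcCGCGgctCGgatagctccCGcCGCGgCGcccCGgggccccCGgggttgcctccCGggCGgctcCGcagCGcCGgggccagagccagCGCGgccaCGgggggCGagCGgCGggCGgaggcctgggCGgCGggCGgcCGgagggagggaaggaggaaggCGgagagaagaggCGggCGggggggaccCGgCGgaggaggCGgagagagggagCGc
Dnmt3a, internal start, chr12:3891494-3891743, plus strand: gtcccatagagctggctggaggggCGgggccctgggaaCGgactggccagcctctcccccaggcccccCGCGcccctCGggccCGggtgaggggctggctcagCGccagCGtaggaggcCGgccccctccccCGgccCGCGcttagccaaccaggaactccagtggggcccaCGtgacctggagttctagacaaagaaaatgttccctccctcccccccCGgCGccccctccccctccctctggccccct

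The stretch before the first Dnmt3a start held 38 CG and was 82.4% G or C, and the stretch before the internal start held 15 CG at 73.6%. The stretch before the shared Dnmt1 start held 7 CG at 54.8%, and the upstream one 2 CG at 50.4%. Of the 32851 RefSeq promoters cut to the same length, 1.9% held at least as many CG as the first Dnmt3a stretch and 27.3% at least as many as the internal one. For the shared Dnmt1 stretch that share was 46.3%, and for the upstream one 81.2%. The start of NM_001199433, the fourth Dnmt1 model, lies at 20757067. The 250 bases before it fall within the span of the models from the shared start and are not printed. They held 26 CG at 68.4%, the most of the 3 Dnmt1 stretches, and 9.6% of promoters held at least as many. A promoter was found for 8 of the 10 members in that table, all but Aes and Hdac1.

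The libraries held 16879261 to 25910130 implied reads in mutants and 14206893 to 21246809 in controls, as read from the width of the deposited FPKM intervals (FPKM counts fragments scaled for transcript length and library size). Epithelial and duodenal markers were present in every library. Vil1 had 644 to 699 FPKM in mutants and 630 to 685 FPKM in controls, and Pdx1 59.9 to 83.1 FPKM in mutants and 64.7 to 82.7 FPKM in controls. Some varied more within both groups. Lct had 91.0 to 192 FPKM in mutants and 53.5 to 185 FPKM in controls, and Cybrd1 32.4 to 70.3 FPKM in mutants and 35.0 to 59.7 FPKM in controls. Mutant 3 and control 3 stood apart from the other 4. Both had female Xist levels (23.2 and 34.0 FPKM, against 0.0366 to 0.0642 FPKM in the others), and the 10 pancreatic acinar markers summed to 8394 FPKM in mutant 3 and 7324 FPKM in control 3, against 1892 and 2052 FPKM in mutants 1 and 2 and 13.01 and 293 FPKM in controls 1 and 2. Sex and pancreatic RNA cannot be told apart in these 2 libraries, and control 3 also lacked the reporter allele. All 10 acinar markers had a positive log2 fold change (median 3.23), and 0 of them had groups without overlap. The 10 smooth muscle markers summed to 557 to 717 FPKM in mutants and 738 to 1002 FPKM in controls, without overlap. All 10 had a negative log2 fold change, as had 9722 of 15864 rows. All mutants lay below all controls for 8 of the 10, beside 9.92% of all rows. In limma 9 were lower at an unadjusted p under 0.05, beside 4.32% of all rows, and none was called. The 7 enteric neuron and glia markers summed to 12.1 to 13.5 FPKM in mutants and 14.7 to 15.9 FPKM in controls. The 7 enteroendocrine markers are genes of the hormone cells in which Nkx2.2 acts in the intestine. Of these, 4 had all mutants below all controls, beside 9.92% of all rows, and 1 all mutants above, beside 3.13%. Their median log2 fold change was -0.52, 3 of the 7 were positive, and none was called over all rows. Their sums overlapped, at 402 to 548 FPKM in mutants and 410 to 480 FPKM in controls. In such whole-wall RNA, fewer cells of a type and less RNA per cell cannot be told apart. Nkx2-2, the targeted gene, had 0.748, 0.744 and 0.666 FPKM in mutants and 1.00, 1.03 and 1.27 FPKM in controls, all mutants below all controls, from 16 to 42 implied reads per library. In limma its adjusted p was 0.786, at a log2 fold change of -0.54 (SE 0.16).

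For none of the 10 members did the difference between mutants and controls pass the test. In limma on log2(FPKM + 0.1) across 15864 rows, the adjusted p of the 10 members ran from 0.786 to 0.976 and their unadjusted p from 0.105 upward. At an adjusted p of 0.05 limma called 0 of the 10 members, beside 0% of all rows. An unadjusted p under 0.05 was found for none of the members, beside 5.81% of all rows (1.49% higher and 4.32% lower in mutants). That split is 237 rows against 685 and moves with the scaling between libraries, to 445 against 461 after trimmed mean scaling and 360 against 431 after quantile normalization. None of the 10 members had mutants all above or all below controls, where 13.1% of all rows did (3.13% above and 9.92% below). The fitted folds of mutant over control lay between 0.871 and 1.08. The 95% intervals concern the RNA level of the whole wall, and across the 10 members they reached from 0.617-fold to 1.49-fold. A 2-fold change of that level in either direction lay outside every one of them. A larger change confined to some of the cells would be diluted in it and was not tested. The median log2 fold change of the members was -0.08, beside -0.05 over all rows tested. The sign of the difference turned in at least 1 of up to 20 alternative settings for 6 of the 10, namely Tle1, Tle3, Tle6, Aes, Hdac1 and Dnmt1, and the smallest adjusted p of any member in any of them was 0.607 in limma. The members' median residual SD was 0.141 log2 units, beside 0.165 over all rows.

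**Figure D1:**
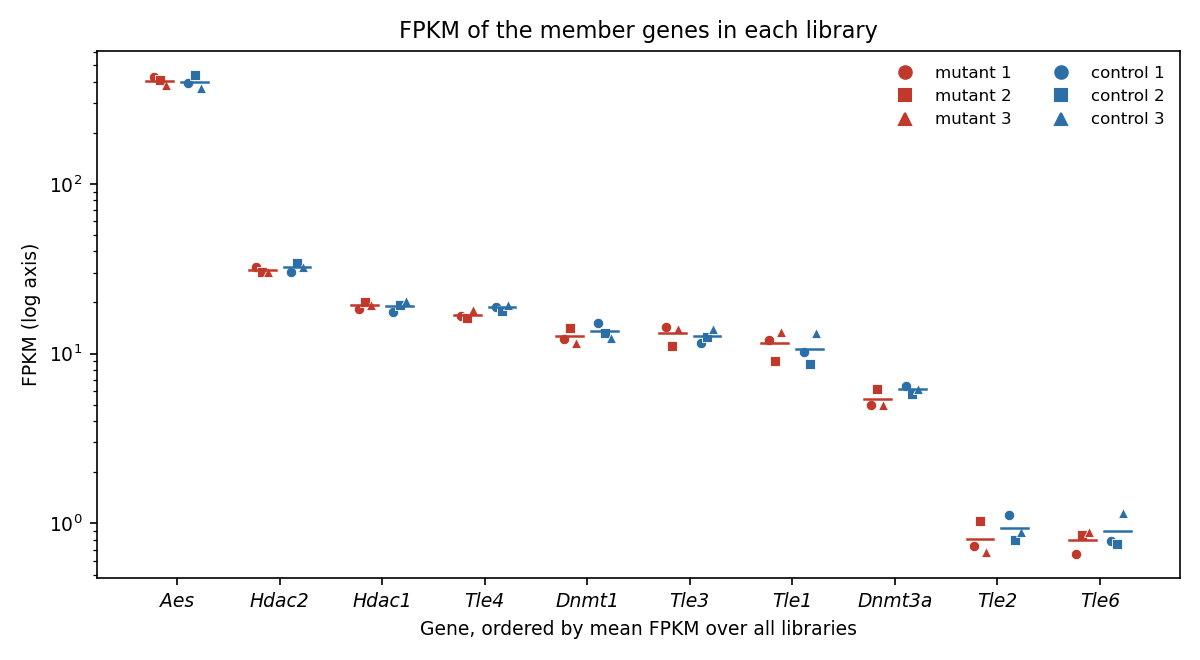
FPKM (vertical log axis) of the 10 genes in each library, with mutants in red to the left of controls in blue, a symbol per replicate number and a line at each group mean. Aes lies between 364 and 439 FPKM, Tle2 and Tle6 between 0.661 and 1.15 FPKM, and the points of the 2 groups overlap for every gene.

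The levels of the members spanned more than 2 orders of magnitude, with pairs of neighbours close together in the middle and at the low end. Aes averaged 405 ± 23.8 FPKM in mutants and 399 ± 37.6 FPKM in controls (SD, n = 3 each here and below) and was 12.7 times the next gene, Hdac2. Hdac2 was above Hdac1 in 6 of 6 libraries, Tle4 above Dnmt1, Tle1 above Dnmt3a and Dnmt3a above Tle2, each pair without overlap of their ranges. Hdac1, whose level is uncertain for the reason given below, and Tle4 overlapped in controls, Dnmt1 was above Tle3 in 3 of 6 libraries, and Tle2 was above Tle6 in 4 of 6. Tle3 exceeded Tle1 within each of the 6 libraries although their ranges overlapped.

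Tle3, the Groucho protein described with Nkx2.2 in beta cells, lies on chromosome 9 of mm9 (61220173 to 61266304, plus strand). It had 14.4, 11.1 and 14.1 FPKM in mutants 1, 2 and 3 and 11.6, 12.5 and 14.0 FPKM in controls 1, 2 and 3. The highest and the lowest of the 6 values were both in mutants, and the groups overlapped fully. Its log2 fold change was 0.05 (SE 0.13), with a 95% interval from -0.25 to 0.35 and an adjusted p of 0.954 in limma.

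Tle4, the most abundant of the 4 long corepressors, lies on chromosome 19 (14522562 to 14672473, minus strand). It had 16.6, 16.1 and 18.2 FPKM in mutants and 18.9, 17.9 and 19.4 FPKM in controls. Mutant 3 lay above control 2, and the other 2 mutants lay below all controls. The log2 fold change was -0.14 (SE 0.08), the interval -0.32 to 0.04 and the adjusted p 0.786 in limma. The smooth muscle and enteric neuron markers also had lower sums in mutants, as given above, and their part in the value of Tle4 was not tested.

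Tle1, a long member on chromosome 4 (71778176 to 71861953, minus strand), had 12.0, 9.06 and 13.5 FPKM in mutants and 10.2, 8.67 and 13.3 FPKM in controls. It was highest in replicate 3 and lowest in replicate 2 of both groups, so that the spread within a group was larger than the difference between them. The log2 fold change was 0.11 (SE 0.20), the interval -0.36 to 0.58 and the adjusted p 0.927 in limma. Of the members with over 100 implied reads in every library, Tle1 had the widest interval.

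Tle2 and Tle6 were the lowest members in the duodenum. Tle2, the remaining long Groucho corepressor, had 0.738, 1.03 and 0.676 FPKM in mutants and 1.12, 0.803 and 0.890 FPKM in controls, from 28 to 66 implied reads per library. Tle6, which is best known from the oocyte and early embryo, had 0.661, 0.859 and 0.888 FPKM in mutants and 0.786, 0.760 and 1.15 FPKM in controls, from 20 to 41 implied reads. Their log2 fold changes were -0.19 (SE 0.21) and -0.13 (SE 0.21), and the intervals allowed 0.617-fold to 1.24-fold for Tle2 and 0.643-fold to 1.30-fold for Tle6.

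Aes lies beside these 2 genes on chromosome 10 of mm9. Its deposited locus ends at 81029109, 8922 bases before that of Tle2, whose end at 81053590 is 59 bases from the end of the oppositely oriented Tle6, and the 3 genes fit within 41341 bases. Aes had 427, 409 and 380 FPKM in mutants and 395, 439 and 364 FPKM in controls, and the groups overlapped. The log2 fold change was 0.02 (SE 0.10), the interval -0.22 to 0.26 and the adjusted p 0.975 in limma. The lowest Aes value of the 6 libraries, 364 FPKM, stands against highest values of 1.12 FPKM for Tle2 and 1.15 FPKM for Tle6, its neighbours in that stretch.

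The balance within the family overlapped between the groups. Tle1 to Tle4 summed to 43.7, 37.3 and 46.4 FPKM in mutants and 41.8, 39.9 and 47.5 FPKM in controls. Tle4 supplied 40.1 ± 2.76% of that sum in mutants and 43.7 ± 2.48% in controls, Tle3 31.0 ± 1.72% and 29.5 ± 1.74%, Tle1 26.9 ± 2.43% and 24.7 ± 3.11%, and Tle2 1.97 ± 0.692% and 2.19 ± 0.435%, in each case with mutants given before controls. Tle4's share ran from 37.98% to 43.24% in mutants and from 40.78% to 45.19% in controls. Tle1's share ran from 24.27% to 29.07% in mutants and from 21.75% to 27.94% in controls. Both overlapped between the groups, and as parts of the same sum they do not move independently. These differences in share were not tested. The ratio of Aes to that sum was 9.77, 10.9 and 8.19 in mutants and 9.44, 11.01 and 7.67 in controls. The lowest ratio of each group was in replicate 3, the libraries with the highest acinar marker sums and the female Xist levels, and the part of either in the ratio was not tested.

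**Figure D2:**
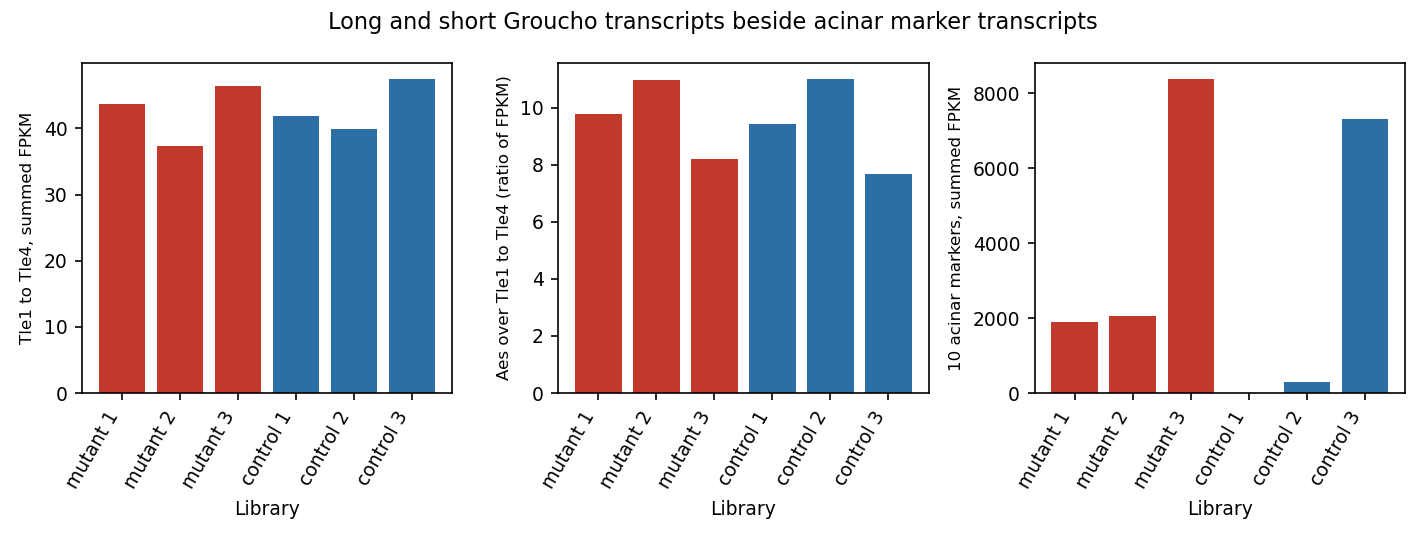
Summed FPKM of Tle1 to Tle4, the ratio of Aes to that sum, and the summed FPKM of 10 pancreatic acinar markers (vertical axes) in each library, mutants in red and controls in blue. In both groups replicate 3 has the highest sum, the lowest ratio (8.19 in mutant 3 and 7.67 in control 3) and the highest acinar sum.

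Hdac1 and Hdac2, the paired class I deacetylases of the Sin3, NuRD and CoREST complexes, had log2 residual SDs of 0.0927 and 0.0771, smaller than those of every other member but Tle4, at 0.0749. Hdac1 (chromosome 4, 129193348 to 129219890, minus strand) had 18.3, 20.2 and 19.3 FPKM in mutants and 17.5, 19.3 and 20.3 FPKM in controls. Its log2 fold change was 0.02 (SE 0.08), with an interval from -0.18 to 0.22 and an adjusted p of 0.976 in limma. Hdac2 (chromosome 10, 36694350 to 36721694, plus strand) had 32.5, 30.2 and 30.2 FPKM in mutants and 30.3, 34.4 and 32.5 FPKM in controls. The same measures for Hdac2 were -0.06 (SE 0.07), -0.24 to 0.11 and an adjusted p of 0.863 in limma. The groups overlapped for both genes. Hdac2 exceeded Hdac1 by 1.61 ± 0.149 times in mutants and 1.70 ± 0.0919 times in controls.

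The level of Hdac1 depends on how reads were counted. The authors' deposited table gives it a mean normalised count of 418, whereas its FPKM intervals imply a mean of 677 reads, a ratio of 0.618. For the other 9 members that ratio lay between 0.990 and 1.19, and over 9324 genes with 1 transcript and at least 50 implied reads its median was 0.995 with quartiles of 0.981 and 1.02. Of those genes, 4.35% had a lower ratio than Hdac1. On the high side, 98.7% had a lower ratio than Tle2 (1.19), 96.5% than Tle6 (1.11), 94.3% than Tle1 (1.08) and 92.8% than Dnmt3a (1.07). Tle2 and Tle6 averaged 41.8 and 30.8 implied reads, below the minimum of that set, and Tle2 and Dnmt3a have 2 transcripts each. Those 3 members thus lie outside the set they are placed in. Aligning the longest coding transcript of each member to mm9 with minimap2 found, for Hdac1 alone, a further place in the genome that matched at least 50% of it, an unspliced stretch of chromosome 17 from 78890879 to 78892881 (plus strand) with 98.8% identity over 97.7% of the transcript. Whether reads shared with that copy make up the difference was not tested. Its fold of mutant over control was 1.02 in the authors' deposited table and 1.01 in limma.

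**Figure D3:**
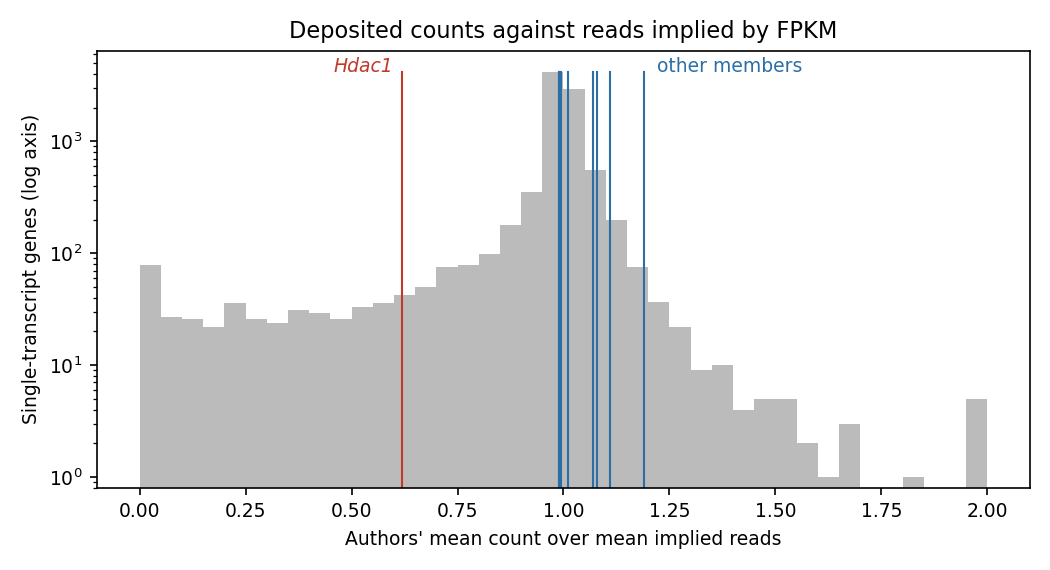
Number of single-transcript genes (vertical log axis) by the ratio of the authors' mean count to the mean of implied reads (horizontal axis, with values above 2 placed in the last bar). The red line marks Hdac1 at 0.618, and the blue lines mark the other 9 members, from 0.990 to 1.19.

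Dnmt1, the maintenance methyltransferase that copies methylation after replication (chromosome 9, 20711650 to 20764332, minus strand), had 12.1, 14.2 and 11.6 FPKM in mutants and 15.1, 13.2 and 12.4 FPKM in controls. The groups overlapped, the log2 fold change was -0.11 (SE 0.11), the interval -0.37 to 0.16 and the adjusted p 0.845 in limma. Dnmt3a, a de novo methyltransferase (chromosome 12, 3806980 to 3914443, plus strand), had 5.01, 6.16 and 4.97 FPKM in mutants and 6.48, 5.81 and 6.21 FPKM in controls. Mutants 1 and 3 lay below all controls and mutant 2 lay among them. Its log2 fold change of -0.20 (SE 0.11) came with an interval from -0.47 to 0.07 and an adjusted p of 0.786 in limma. It was smaller in counts, at -0.098 with limma-voom on implied reads and -0.092 in the authors' deposited table. The ratio of Dnmt1 to Dnmt3a was 2.42, 2.30 and 2.33 in mutants and 2.34, 2.28 and 2.00 in controls.

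**Figure D4:**
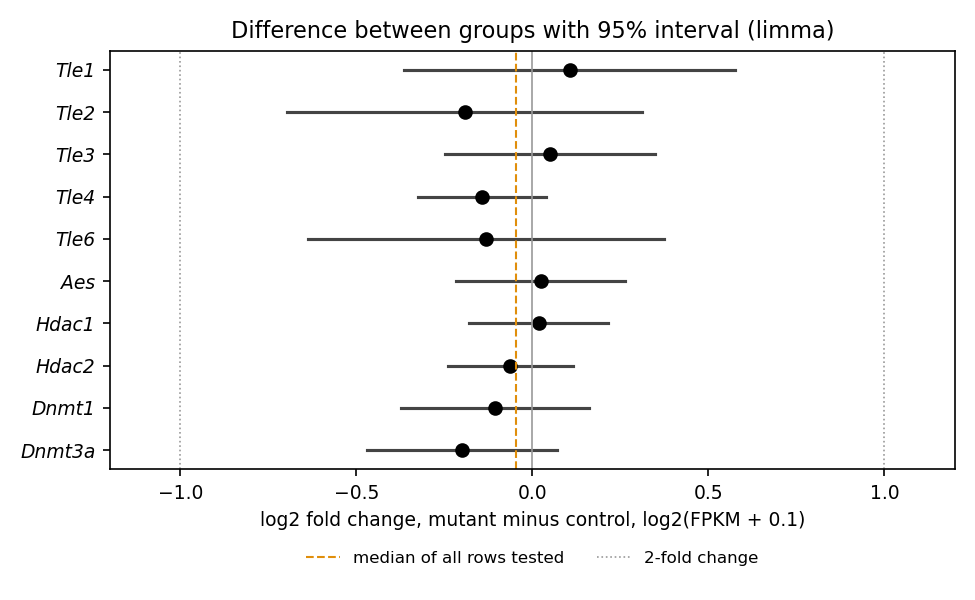
Log2 fold change of each gene, mutant minus control on the log2(FPKM + 0.1) scale (horizontal axis), with its 95% interval from limma. Every interval spans 0 and stays inside the dotted lines at a 2-fold change, and the dashed line marks the median of all rows tested, -0.05.

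In the authors' deposited table, whose columns are those of the count method DESeq, the folds of mutant over control of the 10 members ran from 0.855 for Tle2 to 1.11 for Tle1, each with an adjusted p of 1. None of the members was among the 7 genes with an adjusted p under 0.05 in the authors' deposited table.

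Below the level of the gene, the transcripts of Tle3, Dnmt1 and Dnmt3a were divided very differently from library to library. Of 17 member transcripts, 16 were tested among 19827, and none passed an adjusted p of 0.05 in limma, beside 0.0454% of all transcripts. An unadjusted p under 0.05 was found for 1 of the 16, beside 4.92% of all transcripts (1.7% higher and 3.22% lower in mutants). Groups did not overlap for 1 transcript with mutants above, beside 3.43% of all transcripts, and for 1 with mutants below, beside 8.6%. The first was Tle3 NM_001083927, the longest Tle3 model, with 3.54, 3.08 and 4.12 FPKM in mutants and 4.12e-05, 2.80 and 0.996 FPKM in controls (log2 fold change 2.42, SE 1.19, adjusted p = 0.853 in limma). That value rests on control 1 and on the pseudocount, at 1.04 without control 1, 1.215 with a pseudocount of 1 and 3.55 with 0.01. The second was Dnmt1 NM_001199433, with 0.101 FPKM in mutant 1 and values listed at practically 0 in mutants 2 and 3, and with 0.224, 0.221 and 0.163 FPKM in controls (log2 fold change -1.26, unadjusted p = 0.0295 and adjusted p = 0.853 in limma). It rested on 0 to 14 implied reads per library, and its log2 fold change ran from -0.22 with a pseudocount of 1 to -3.24 with 0.01. Implied reads were checked only on genes with 1 transcript and are approximate for single transcripts. In mutant 1 the Dnmt1 transcripts had 599, 158, 5 and 0, against 1038 for the gene.

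Tle2 was divided between 2 models, of which NM_019725 was below the filter on low values and held from practically 0% to 20.1% in mutants and from 6.28% to 14.3% in controls.

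The most abundant Tle3 transcript, NM_001083928, held 43.7%, 71.4% and 63.3% of the gene's FPKM in mutants and 69.8%, 64.1% and 71.3% in controls. Mutant 1 stood below the rest. The difference of the means was -8.94 percentage points, with an exact two-sided permutation p of 0.5, where 3 against 3 cannot go below 0.1. It was -1.08 without mutant 1 and -14.9 without mutant 2. NM_009389 ranged from 0.921% to 31.6% within the mutants alone. The gene's total, in contrast, ran from 11.1 to 14.4 FPKM in the same animals.

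Dnmt1 showed the widest swings. NM_010066 and NM_001199431, which share a start and differ in length by 3 bases, held 0.00336% and 72.5% in mutant 1 but 79.7% and 18.7% in control 2. NM_001199431 was the most abundant of the 4 by its mean over all 6 libraries and in mutants, and NM_010066 in controls, where they averaged 38.7% and 46.9%. For NM_001199431 the difference of the means was 18.0 percentage points (exact two-sided permutation p = 0.3), with 7.98 without control 2, 10.1 without mutant 1 and 27.1 without control 1. The upstream start of NM_001199432 was given 26.7%, 26.5% and 41.7% in mutants and 0.0142%, 0.00354% and 38.7% in controls. Controls 1 and 2 were thus near 0 while control 3 lay within the range of the mutants. In FPKM this transcript had 3.24, 3.76 and 4.83 in mutants and 0.00215, 4.69e-04 and 4.79 in controls, a log2 fold change of 3.44 (SE 1.54, adjusted p = 0.853 in limma). With 2 controls near 0 the pseudocount sets this value, which was 1.45 with a pseudocount of 1 and 5.52 with 0.01. Without control 3 the log2 fold change was 5.30 with an adjusted p of 0.0272 in limma, so that 1 library decides this call. That library has female Xist levels, high acinar marker sums and no reporter allele, as given above. Among the male libraries alone, which leaves out control 3 and mutant 3, the log2 fold change was 5.15 (SE 0.28) and the adjusted p 0.228 in limma.

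The deposited intervals of these estimates were narrow beside the differences between animals of the same group. How far those differences come from the division of reads between models that share most of their bases was not tested. For NM_001199432 the interval ran from 4.24 to 5.35 FPKM in control 3 and ended at 0.0303 FPKM in control 1. The summed level of Dnmt1 over its 4 transcripts varied from 11.6 to 15.1 FPKM over the 6 libraries.

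Dnmt3a NM_007872, the full-length model, held 100%, 87.0% and 86.4% of the gene's FPKM in mutants and 88.8%, 87.3% and 75.5% in controls (difference 7.28 percentage points, exact two-sided permutation p = 0.6). The difference was 2.85 without mutant 1 and 3.10 without control 3. NM_153743, from the internal start and known as Dnmt3a2, had 6.30e-05, 0.799 and 0.674 FPKM in mutants and 0.724, 0.739 and 1.52 FPKM in controls. Mutant 1 was the lowest and control 3 the highest of the 6. Adjusted over the 3 genes, the p of each share was 0.6 in the exact permutation test.

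**Figure D5:**
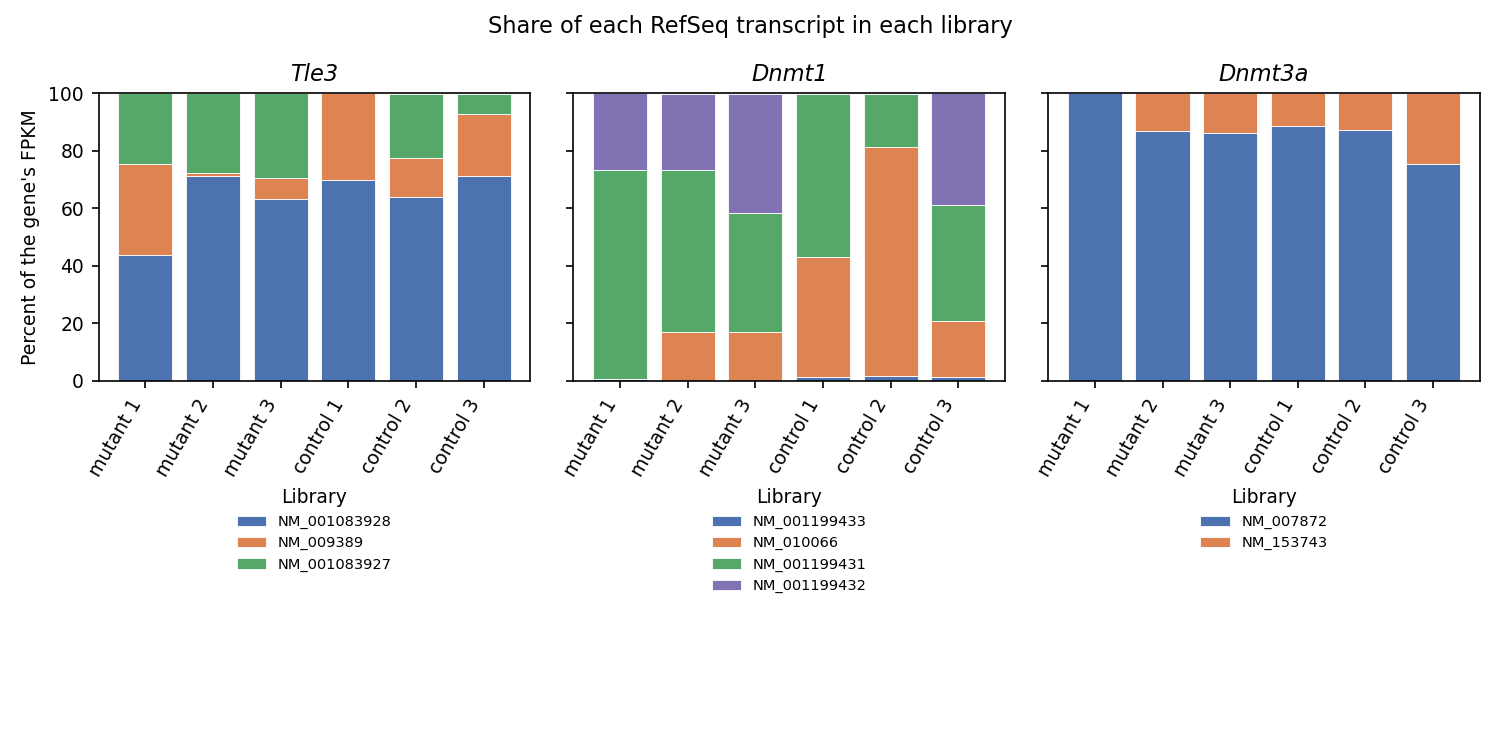
Percent of the FPKM of Tle3, Dnmt1 and Dnmt3a (vertical axis) given to each RefSeq transcript in each library, mutants to the left of controls. NM_001199432 of Dnmt1 takes 26.5% to 41.7% in mutants and 38.7% in control 3 and is near 0 in controls 1 and 2.

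Other genes of the same machinery gave no call either. Among 14 tested factors that recruit Groucho proteins, of 22 listed, 3 had a positive and 11 a negative log2 fold change (median -0.16). In each direction 1 had an unadjusted p under 0.05 in limma, beside 1.49% of all rows higher and 4.32% lower in mutants. The lower 1 was the targeted gene Nkx2-2. Besides Nkx2-2, the smallest p was that of Hes6, a member of the Hes family of repressors, with 51.0, 49.9 and 47.3 FPKM in mutants and 41.9, 44.9 and 42.3 FPKM in controls, all mutants above all controls (log2 fold change 0.20, SE 0.07, adjusted p = 0.786 in limma).

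Of 25 subunits of class I deacetylase complexes, 8 had a positive and 17 a negative log2 fold change (median -0.04). An unadjusted p under 0.05 in limma was found for 1 of them, beside 5.81% of all rows. That was Rcor1, the scaffold of the CoREST complex, with 13.9, 14.1 and 11.6 FPKM in mutants and 16.6, 15.2 and 15.3 FPKM in controls (log2 fold change -0.25, SE 0.10, adjusted p = 0.786 in limma). Ncor1, the nuclear receptor corepressor that acts with Hdac3, had 35.7, 35.7 and 29.4 FPKM in mutants and 45.3, 38.8 and 36.3 FPKM in controls (log2 fold change -0.26, SE 0.12, adjusted p = 0.786 in limma). For both genes all mutants lay below all controls. That held for 4 of the 25 subunits, beside 9.92% of all rows, and all mutants lay above all controls for 2 of the 25, beside 3.13%.

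The 7 other deacetylases had a median of -0.09, led by Hdac7 at -0.16 and Hdac4 at -0.32. Of 14 genes of DNA methylation and its removal, 3 had a positive and 11 a negative log2 fold change (median -0.14). An unadjusted p under 0.05 in limma was found for 1 of them, beside 5.81% of all rows. That was Tet3, an enzyme that oxidizes methylated cytosine, with 9.31, 9.94 and 8.76 FPKM in mutants and 11.9, 10.7 and 10.3 FPKM in controls (log2 fold change -0.23, SE 0.09, adjusted p = 0.786 in limma). Its relative Tet2 had a log2 fold change of -0.39. Among 8 other corepressors (median -0.18), Runx1t1 had a log2 fold change of -0.58 and Cbfa2t2 of -0.21. Over all rows the counts were 6142 positive and 9722 negative.

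Of 12569 other genes with a mean of at least 1 FPKM, the 3 whose profile over the 6 libraries was most like that of Tle3 were Brp44, Psmb8 and Agpat9. The root mean square difference of their centred log2 profiles from that of Tle3 was 0.0352, 0.0375 and 0.0406, beside a spread of Tle3 itself of 0.157 (SD). Of the members compared, Hdac2 had the smallest difference from Tle3, at 0.137, which was rank 1433 among all genes compared. That is near the spread of Tle3 itself, about what a gene with a flat profile would give. Hdac2 varied little (residual SD 0.0771), so its rank does not show that it followed Tle3. With 6 libraries and this many genes, such likeness is a description only.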

How the data were processed

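The submitters' processing notes name CASAVA 1.8.2, and, without versions, TopHat and Cufflinks, with mouse build mm9. Also named there is DESeq, by whose column names the authors labelled their deposited comparison table; which program counted the reads is not known here. FPKM with an interval, and the coverage of each RefSeq transcript, fill the authors' tables of single libraries, per the file headers. The authors deposited in it group means (a signal, which that tool defines as counts over size factors), a fold ratio, its log2 value and p-values.

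The members and lists were chosen with earlier results of these data known. A mean of 0.1 FPKM or more was required of a row, and rows were tested with limma 3.58.1 in R 4.3.3 (trended prior, log2(FPKM + 0.1), two-sided, Benjamini-Hochberg adjustment over 15864 gene rows or 19827 transcripts). Fold changes are on that log2 scale, which understates changes of low genes. The test was first run on simulated data. Implied reads are the square of 2 FPKM over the distance to the upper bound, and among genes with 1 transcript and low read numbers 87.8% to 88.2% of them fell within 0.05 of a whole number. Alternatives changed the pseudocount, filter, scaling, prior, weights, covariates and libraries used, or ran limma-voom on implied reads. Transcript shares were compared by exact permutation. Copies were sought with minimap2 2.31. Sequence positions are 1-based; the deposited starts count from 0. The labels number the mice but do not tie them to litters, so p-values measure the spread between these samples. The deviations of same-numbered mutants and controls correlated across genes at 0.11, 0.21 and 0.39. Differently numbered pairs ran from -0.28 to 0.13, so mutant 1 with control 1 lay within their range. The value of 0.39 was that of mutant 3 and control 3, the pair with female Xist levels and the highest acinar sums. The replicate block changed no call on a member. The named genes were all members, the 2 genes with the smallest unadjusted p of each list, Nkx2-2 and the 3 nearest profiles to Tle3.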

Additional observations from a re-analysis of the deposited data

How the results depend on the processing

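Under every setting tried, no member gene passed an adjusted p of 0.05, and 6 of the 10 turned sign at sizes near 0. Aes had a log2 fold change of -0.060 after quantile normalization and -0.041 to 0.094 with 1 library left out. With the acinar markers as a covariate it was 0.0080 for Dnmt1, -0.055 for Hdac1, -0.065 for Tle1 and -0.054 for Tle3. With 1 library left out it was -0.042 to 0.065 for Hdac1, -0.033 to 0.27 for Tle1, -0.018 to 0.17 for Tle3, -0.23 to 0.039 for Tle6 and -0.15 to 0.0080 for Dnmt3a NM_007872. Using mutant and control numbers as a replicate block gave calls for 2 genes and 0 transcripts, none of them members, beside 0 genes and 9 transcripts without it. The authors' deposited table called 7 genes and a sex covariate, added after seeing the data, called 1 gene and 4 transcripts. Transcript calls were 18 without a variance trend, 16 with no filter, 3 with a pseudocount of 1, 0 with a mean FPKM of at least 1 and 0 in male libraries alone, a setting also added after seeing the data. Leaving out 1 library gave 0 to 3 genes (3 without mutant 1, and 2 without mutant 2 or control 2) and 0 to 12 transcripts (0 without control 1 or mutant 3). The log2 fold change of Dnmt3a was -0.098 with limma-voom on implied reads. Among member transcripts, Dnmt1 NM_001199432 passed the threshold without control 3. The causes were not tested. Tle2 and Tle6 had 20 to 66 implied reads per library, the fewest of the members.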
